A study of Arabidopsis thaliana with 24 samples.

Results

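This account covers 10 transcripts that work beside or downstream of the central circadian oscillator of *Arabidopsis thaliana*: the activators RVE4 (AT5G02840), RVE6 (AT5G52660) and RVE8 (AT3G09600), their coactivators LNK1 (AT5G64170) and LNK2 (AT3G54500), the regulators FKF1 (AT1G68050) and CHE (AT5G08330), and the output transcripts GRP7 (AT2G21660), GRP8 (AT4G39260) and CCL (AT3G26740). They were chosen by locus, for their roles. All 10 were among the 38194 features of the deposited count table, and all 10 passed the filter on low counts in every comparison. The 24 libraries were ribosome-depleted RNA of whole detached leaves 1 and 2 of accession Columbia-0, with 18 to 20 leaves pooled per library, from plants grown on soil for 10 d in continuous light. Stimulus leaves were incubated for 8 h with bikinin (20 µM), 2,4-dichlorophenoxyacetic acid (2.5 µg/mL) and kinetin (0.5 µg/mL), and mock leaves for 8 h in the same buffer without these 3 compounds. Bikinin inhibits kinases that hold back brassinosteroid signalling, 2,4-dichlorophenoxyacetic acid is a synthetic auxin, and kinetin is a cytokinin. The buffer of both treatments held glucose, Murashige and Skoog salts and dimethyl sulfoxide. Cordycepin (1 mM), which ends RNA chains, followed in both treatments, for 0, 15, 60 or 240 min before freezing. Each treatment and time had 3 libraries, numbered 2, 3 and 4. The labels do not say whether these came from separate plantings, so the tests measure the spread between libraries, which may in part be technical.

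The plant clock is a loop of genes that repress and activate each other in turn over the day. CCA1 and LHY are made in the morning, and they repress genes of the evening such as TOC1. RVE4, RVE6 and RVE8 are MYB-like proteins related to CCA1 that bind the same short DNA word, the evening element, but switch on the evening genes, and LNK1 and LNK2 are recruited by RVE4 and RVE8 as coactivators. FKF1 is a blue-light receptor with an F-box that removes repressors of flowering genes. CHE is a TCP-type transcription factor that represses CCA1. GRP7 and GRP8 are glycine-rich RNA-binding proteins whose RNA peaks late in the day and which act on the splicing of their own and each other's RNA. CCL is a short-lived transcript whose stability is known to change with the time of day.

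The evening element, AAAATATCT on either strand, was searched in the 300 bases before the annotated start of each gene, since it is the word through which the RVE proteins reach their targets. It was found upstream of 4 of the 10 genes, namely GRP7, GRP8, CCL and FKF1, against 2.79% of the windows of the same length before 27443 protein-coding genes (RefSeq annotation of TAIR10.1). GRP7 held 3 copies, a number reached in 3 of those 27443 windows. The stretches that hold the elements are printed from the coding strand, 5′ to 3′, up to the last base before the annotated start. Capitals mark the evening element, which reads AGATATTTT where it lies on the other strand. The GRP7 stretch is chr2:9266558-9266677 (minus strand), the GRP8 stretch chr4:18275217-18275336 (minus strand), the CCL stretch chr3:9827562-9827681 (plus strand) and the FKF1 stretch chr1:25508439-25508638 (plus strand).

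GRP7: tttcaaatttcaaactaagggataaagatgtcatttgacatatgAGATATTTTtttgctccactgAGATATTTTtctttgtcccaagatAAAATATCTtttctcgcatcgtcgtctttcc
GRP8: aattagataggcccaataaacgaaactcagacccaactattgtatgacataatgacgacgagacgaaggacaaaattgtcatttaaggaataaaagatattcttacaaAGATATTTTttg
CCL: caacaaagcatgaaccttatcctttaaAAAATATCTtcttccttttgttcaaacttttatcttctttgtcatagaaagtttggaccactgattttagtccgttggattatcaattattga
FKF1: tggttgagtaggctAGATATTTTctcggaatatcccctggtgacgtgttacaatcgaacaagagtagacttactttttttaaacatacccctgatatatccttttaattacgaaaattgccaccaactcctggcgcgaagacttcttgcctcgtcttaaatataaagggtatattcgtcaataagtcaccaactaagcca

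The last base of the element lay 68, 47 and 23 bases before the start of GRP7, 4 bases before GRP8, 85 before CCL and 178 before FKF1. The related CCA1 binding site, AAAAATCT, was in the window of RVE6 and of no other member (7.94% of all windows). The G-box CACGTG (7.09% of all windows) and the class I TCP site GGNCCCAC (1.18%) were in none of the 10. These matches describe the letters of a short window, and sites farther away were not searched.

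Total counts ran from 24021278 to 34166478 per library, and the members had from 16 counts (CHE in 1 library) to 13871 counts (CCL in 1 library). Of the 4 leaf mesophyll markers, RBCS1A had at least 2182 CPM (the count relative to the scaled library size), LHCB1.1 at least 218 and LHCA1 at least 118 in every library, while LHCB2.2 ran from 3.09 to 870 CPM. Of the 2 root markers, EXPA7, of root hairs, was at 0.0605 CPM or less, and PYK10 ran from 0.435 to 11.3 CPM. GH3.3, an auxin-induced transcript, was at 150.2 CPM or more in the 12 stimulus libraries and at 7.33 CPM or less in the 12 mock libraries, on the side its label gives in each case. The loss of short-lived RNA did not follow the labelled minutes alike in all series. An index of 200 transcripts that fell most in stimulus replicate 2 (mean log2 change from 0 min, no member among them, and low there by choice) stood at -2.85, -1.72 and -2.98 in stimulus replicates 2, 3 and 4 at 240 min, and at -0.15, -0.47 and -3.01 in mock replicates 2, 3 and 4. Mock replicate 3 was further down at 60 min (-1.88) than at 240 min, and mock replicate 2 stayed between -0.25 and 0.11 throughout. Whether any library carries the label of another was not tested, and all were kept as labelled. In whole leaves, fewer cells of a type and less RNA per cell cannot be told apart.

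Libraries also stood apart in clock phase. A phase score was taken as the mean log2 CPM of the evening genes TOC1, LUX, ELF4, GI and BOA minus that of the morning genes CCA1 and LHY, centred on its mean over the 24 libraries. No member enters it. The score lay above 0 in 9 libraries: mock replicate 3 at 0, 15 and 60 min, mock replicates 2 and 4 at 240 min, stimulus replicate 3 at 15, 60 and 240 min and stimulus replicate 4 at 240 min. It was 0.05 in mock replicate 2 at 240 min and at least 0.54 in the other 8. GI was lower, not higher, in these libraries (median 13.3 CPM in the 9, against 23.2 CPM in the other 15), so the score rests mainly on CCA1 (median 4.53 against 36.3 CPM) and LHY (8.73 against 40.5 CPM). Because these sides were read from the data, member levels on them are described without a test.

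The coactivators and RVE8 were low where the score was high. LNK1 had a median of 8.43 CPM (5.67 to 25.3) in the 9 libraries above 0 and of 32.2 CPM (24.7 to 55.9) in the 15 below 0. LNK2 had a median of 5.72 CPM (1.70 to 32.5) above 0 and of 35.8 CPM (21.1 to 64.9) below 0. RVE8 had a median of 4.56 CPM (3.06 to 11.8) above 0 and of 15.8 CPM (8.17 to 21.7) below 0. In all 3 genes, the one library above 0 that reached into the range of the other side was mock replicate 2 at 240 min, whose score was 0.05.

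GRP7, FKF1 and CCL leaned the other way. GRP7 had a median of 113 CPM (63.5 to 168) in the libraries above 0 and of 63.2 CPM (43.7 to 96.9) below 0. FKF1 had a median of 18.2 CPM (12.1 to 27.6) above 0 and of 10.7 CPM (6.05 to 16.1) below 0. CCL had a median of 182 CPM above 0 and of 119 CPM below 0, with ranges (44.4 to 415, and 23.6 to 275) that overlapped widely. These 3 genes are among the 4 with an evening element in the window printed here, and a link of the element with phase was not tested. GRP8, the other gene with the element, had a median of 13.1 CPM (2.28 to 21.9) above 0 and of 10.5 CPM (4.53 to 16.7) below 0. The medians of CCL and FKF1 pool treatments that differed at 0 min. Within each treatment they were also higher above 0. GRP8 and the remaining members are given next within each treatment. RVE4 was lower above 0 in both treatments, with medians of 10.7 CPM above and 19.0 CPM below 0 in stimulus, and of 26.1 CPM above and 32.5 CPM below 0 in mock. GRP8 had medians of 17.3 CPM above and 13.5 CPM below 0 in stimulus, and of 8.28 CPM above and 8.04 CPM below 0 in mock. RVE6 (10.9 and 10.6 CPM in stimulus, 9.12 and 10.7 CPM in mock) and CHE (2.18 and 2.37 CPM in stimulus, 5.47 and 8.19 CPM in mock) had ranges that overlapped widely, above 0 given first.

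**Figure D1:**
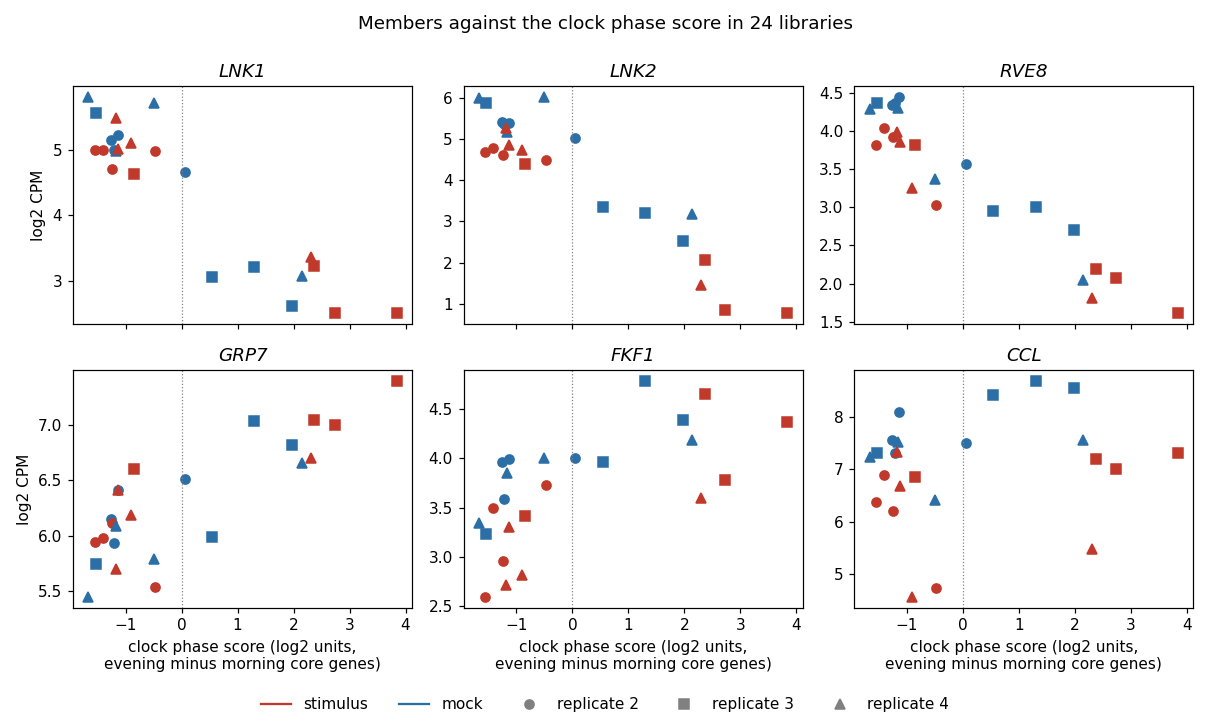
log2 CPM of 6 members (vertical axes) against the clock phase score (horizontal axes, log2 units, evening minus morning core genes) in the 24 libraries, coloured by treatment with a marker shape for each replicate number; the dotted line marks 0. LNK1, LNK2 and RVE8 are low at high scores (LNK2 reaches 1.70 CPM), GRP7 is high there (up to 168 CPM), and CCL spreads widely on both sides.

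The members were also set against each other and against the other 10320 features with a mean of at least 10 CPM, by Spearman's rho of log2 CPM over the 24 libraries after the mean of each of the 8 groups was taken out. These are descriptions, since the libraries share series and the phase differences above. LNK1 and LNK2 ran together (rho 0.97), as did RVE4 and RVE8 (0.85) and RVE8 and LNK2 (0.84), while GRP7 ran against LNK2 (-0.90), LNK1 (-0.86) and RVE8 (-0.80). FKF1 and GRP7 ran together (0.76), and FKF1 ran against RVE8 (-0.76). The features most like LNK2 were CCA1 (0.97) and AT5G57345 (0.97). Those most like LNK1 were LHB1B2 and CAB2 (both 0.98), which encode chlorophyll-binding antenna proteins. CAB2 is the same locus as LHCB1.1, used here as a mesophyll marker and an output gene, so that marker ran with LNK1. Those most like RVE8 were CH1 (0.98), which makes chlorophyll b, and LHCB4.2 (0.95), another antenna protein. For FKF1 they were COR27 (0.86) and COL9 (0.85), and for GRP7 RIBA2 and JMJD5 (both 0.86), of which COR27 and JMJD5 are clock-regulated genes. RVE4 was most like RVE8 and AT5G39530 (both 0.85), CCL like AT5G24165 (0.95) and PEX11D (0.92), and CHE like AT4G13575 (0.96) and PUB49 (0.95). RVE6 was most like COR15A (0.83), a cold-induced gene, and AAO3 (0.76), and GRP8 like NET1C (0.81) and AT1G32530 (0.80).

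At 0 min of cordycepin, 4 of the 10 members were lower in stimulus than in mock leaves and none was higher (edgeR's quasi-likelihood test, 3 libraries per treatment, Benjamini-Hochberg adjusted p under 0.05). They were CCL, CHE, FKF1 and RVE4. Over all 20311 features tested 56.2% were called, 30.2% as lower and 25.9% as higher in stimulus, so the members' count is no higher than the background. The median log2 change of the members was -0.25, and that of all features -0.03. Markers of cell types also differed at 0 min: of 14, 5 were lower in all stimulus than in all mock libraries, 1 was higher and 8 overlapped. The guard cell pair (FAMA and MYB60) summed to 14.4 to 18.5 CPM in stimulus and 23 to 31.0 CPM in mock, and the epidermis pair (ATML1 and PDF1) to 51.7 to 53.0 CPM in stimulus and 68.7 to 79.2 CPM in mock. The phloem pair (SUC2 and APL) summed to 76.2 to 90.6 CPM in stimulus and 34.0 to 48.3 CPM in mock, and the root pair to 0.532 to 1.61 CPM in stimulus and 2.99 to 11.3 CPM in mock. The sums of the 4 mesophyll markers overlapped (4750.0 to 5887 CPM in stimulus, 5007 to 12090.0 CPM in mock). Those of the xylem pair VND7 and IRX3 also overlapped (6.35 to 7.90 in stimulus, 7.09 to 11.3 in mock). Sums hide single markers: RBCS1A was lower in stimulus (3386 to 3975 CPM) than in mock (4102 to 7014 CPM). PDF1, APL, EXPA7 and the other 3 mesophyll markers each overlapped between treatments. The part of cell types in the members' differences was not tested.

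CCL had 119, 115 and 103 CPM in stimulus replicates 2, 3 and 4, against 275, 415 and 185 CPM in mock replicates 2, 3 and 4. Its treatments did not overlap, and the mock libraries were spread more widely. It was lower in stimulus by a log2 change of -1.43 ± 0.27 (SE; edgeR adjusted p 0.00341), or 0.370 of the mock level. In one fit of all 24 libraries it was not called (-1.37, 0.12). Of the 921 stretches of 50 bases in its exons, 82.5% occur once in the TAIR10.1 genome, so reads from the other stretches may have been placed elsewhere.

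CHE had 3.83, 3.00 and 2.99 CPM in stimulus leaves, against 9.09, 6.22 and 8.19 CPM in mock leaves. The lowest mock library lay well above the highest stimulus library. It was lower in stimulus by -1.32 ± 0.18 (edgeR adjusted p 2.18e-04), or 0.401 of the mock level, but was not called in one fit of all 24 libraries (-1.26, 0.169). It is among the least abundant members, with 99 to 143 counts per stimulus library.

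RVE4 had 19.1, 19.0 and 19.8 CPM in stimulus leaves, against 32.7, 29.4 and 32.5 CPM in mock leaves. Both groups were tight, with an SD of 0.451 and 1.85 CPM. It was lower in stimulus by -0.77 ± 0.08 (edgeR adjusted p 3.99e-05), or 0.585 of the mock level. FKF1 had 11.3, 10.7 and 9.89 CPM in stimulus leaves, against 16.0, 27.6 and 14.4 CPM in mock leaves, where replicate 3 was the high one. It was lower by -0.92 ± 0.24 (edgeR adjusted p 0.0135), a call that ended with no filter on low counts (0.0531), with total counts as library size (0.0603), in one fit of all 24 libraries (0.206), without stimulus replicate 3 (0.0544) and without stimulus replicate 4 (0.0626).

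The other 6 members were not called in the main edgeR fit with all libraries, and for RVE8, LNK1 and LNK2 a single mock library set much of the spread. LNK1 had 32.1, 24.7 and 32.2 CPM in stimulus leaves, against 37.5, 9.27 and 31.6 CPM in mock leaves. LNK2 had 27.4, 21.1 and 29.2 CPM in stimulus leaves, against 42.4, 9.18 and 35.8 CPM in mock leaves. RVE8 had 16.4, 14.1 and 14.5 CPM in stimulus leaves, against 21.7, 8.02 and 19.7 CPM in mock leaves. In all 3 the low library was mock replicate 3, the one library of 0 min with a phase score above 0 (1.30; the other 5 ran from -1.41 to -0.85).

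Without mock replicate 3, edgeR called 7 of the 10 members and 55.9% of 20555 features. That library was singled out in part by the levels of LNK1, LNK2 and RVE8, so their values in this fit are not a separate test. LNK2 then stood lower in stimulus by -0.66 (adjusted p 0.00656), RVE8 lower by -0.53 (0.0015) and GRP8 higher by 0.36 (0.0287). LNK1 was then at -0.29 (0.108), in place of 0.12 ± 0.49 with all libraries, and GRP7 at 0.03, in place of -0.27 ± 0.26, and neither was called. The 4 members called with all libraries were called again, with FKF1 at -0.58 in place of -0.92 and CCL at -1.10 in place of -1.43. CHE and RVE4 moved the other way, to -1.46 and -0.83. GRP7 had 63.2, 96.9 and 85.0 CPM in stimulus leaves, against 85.0, 131 and 67.9 CPM in mock leaves. It was highest in mock replicate 3, but its stimulus libraries were also spread.

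GRP8 and RVE6 differed little between treatments at 0 min. GRP8 had 13.1, 16.7 and 14.1 CPM in stimulus leaves, against 10.5, 13.1 and 11.3 CPM in mock leaves, a log2 change of 0.27 ± 0.12 that was not called (edgeR adjusted p 0.0768). With total counts as library size edgeR called it as higher (0.53, 0.00865), where the median of all features was 0.23. It was also called with the replicate block (0.27, 0.0413). GRP8 was not called with median-ratio scaling (0.0564), no filter (0.0759), one fit of all 24 libraries (0.565) or DESeq2 (0.0758). Its lowest stimulus library lay just above its highest mock library. RVE6 had 10.2, 8.60 and 10.0 CPM in stimulus leaves, against 9.55, 9.12 and 10.7 CPM in mock leaves, with overlapping groups (-0.09 ± 0.11, adjusted p 0.51). Treatments did not overlap at 0 min in 5 of the 10 members, against 65.4% of all features tested.

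**Figure D2:**
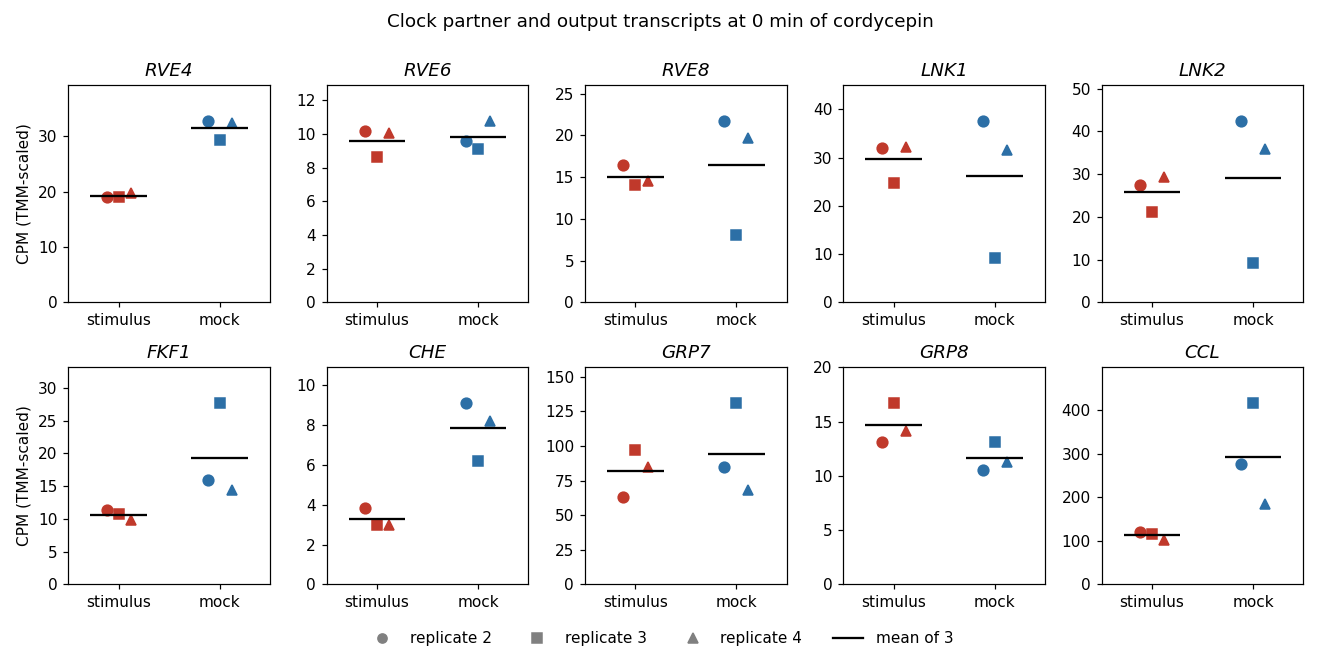
CPM of each member at 0 min (vertical axes from 0, TMM-scaled over 24 libraries) in the 3 stimulus libraries (left, red) and 3 mock libraries (right, blue); marker shapes give the replicate number and bars the means. RVE4, CHE, FKF1 and CCL are lower in all stimulus libraries, and mock replicate 3 (square) lies far from the other mock libraries in RVE8 (8.02 CPM), LNK1 (9.27 CPM) and LNK2 (9.18 CPM).

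Per kilobase of exon, the scale on which genes can be ranked, CCL and GRP7 were the most abundant members at 0 min. CCL averaged 105 ± 8.17 CPM per kb in stimulus and 273 ± 109 in mock leaves (SD, n = 3 each), and GRP7 70.1 ± 14.7 in stimulus and 81.2 ± 27.9 in mock. In stimulus leaves GRP8 followed with 13.3 ± 1.65 CPM per kb and LNK1 with 11.1 ± 1.62, whose ranges overlapped. RVE4 (9.16 ± 0.214) and LNK2 (8.85 ± 1.46) overlapped LNK1 and each other. Below them came RVE8 (6.39 ± 0.530), RVE6 (5.81 ± 0.527) and FKF1 (4.90 ± 0.324), each overlapping the next, and CHE (2.05 ± 0.301) stood apart at the low end. In mock leaves RVE4 followed CCL and GRP7 at 15.0 ± 0.877 CPM per kb, above GRP8 at 10.5 ± 1.19, and CHE last at 4.92 ± 0.921.

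RVE4 remained lower in stimulus throughout the time course. Its highest stimulus library of all 12 had 20.2 CPM and its lowest mock library of all 12 had 21.3 CPM. At 15 min it had 19.3, 10.1 and 20.2 CPM in stimulus replicates 2, 3 and 4, against 34.0, 28.2 and 25.9 CPM in mock. At 60 min it had 16.3, 12.2 and 15.6 CPM in stimulus, against 28.6, 26.0 and 22.8 CPM in mock. At 240 min it had 11.5, 11.3 and 9.06 CPM in stimulus, against 26.1, 34.2 and 21.3 CPM in mock. RVE4 was the one member whose treatments did not overlap at any of the 4 times. The share of all features without overlap at all 4 times was not computed. Treatments did not overlap in 3 members at 15 min (37.1% of all features), in 2 at 60 min (27.3%) and in 2 at 240 min (34.5%). The log2 change was -0.85 ± 0.28 at 15 min (edgeR adjusted p 0.0905, not called), -0.82 ± 0.20 at 60 min (0.0492, called) and -1.37 ± 0.24 at 240 min (0.015, called).

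At 15 min edgeR called none of the 10 members, against 15.8% of 20636 features (6.91% higher and 8.87% lower in stimulus). At an unadjusted p under 0.05 there were 3 members and 31.5% of all features, and DESeq2 called 2 members (RVE4 and CHE) and 23.9% of all features. At this time the libraries of one replicate number deviated together in both treatments, and with the replicate number as a block edgeR called 2 members, RVE4 (-0.90, adjusted p 0.0498) and LNK2 (-1.04, 0.031), and 26.6% of all features. LNK2 had 24.6, 1.70 and 38.7 CPM in stimulus replicates 2, 3 and 4, against 41.4, 5.72 and 64.2 CPM in mock replicates 2, 3 and 4, so it was lower in stimulus at each number. LNK1 had 26.1, 5.67 and 44.6 CPM in stimulus, against 32.0, 6.11 and 55.9 CPM in mock, with both replicate 3 libraries low.

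At 60 min edgeR called RVE4 alone of the 10 members, against 7.65% of 20541 features (2.77% higher and 4.88% lower in stimulus). The RVE4 call ended with the removal of any single library (adjusted p 0.0664 to 0.158), with the same direction each time (-0.72 to -0.92). GRP8 had 13.8, 17.9 and 15.8 CPM in stimulus, against 8.04, 2.28 and 4.53 CPM in mock, so the groups stood far apart. Its log2 change of 1.68 ± 0.45 was just outside the threshold in edgeR (adjusted p 0.0679) and inside it in DESeq2 (0.00439). LNK2 had 25.9, 4.21 and 26.7 CPM in stimulus, against 42.9, 10.2 and 64.9 CPM in mock.

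At 240 min edgeR again called RVE4 alone, against 11.4% of 20441 features (3.90% higher and 7.49% lower in stimulus). CHE had 1.15, 1.56 and 1.21 CPM in stimulus, against 9.11, 7.98 and 0.956 CPM in mock. The low mock library was replicate 4, the one of the 3 with a strong loss of short-lived RNA. With all libraries the change was -2.20 ± 0.74 (edgeR adjusted p 0.0983), and without mock replicate 4 it was -2.73 (0.00143), where 36.5% of 21250 features were called. DESeq2 called CHE with all libraries kept (-2.17, 0.0159), as did one edgeR fit of all 24 libraries (-2.20, 0.0184). Those fits called 20.2 and 28.2% of all features. CHE was not called with median-ratio scaling, total counts, no filter or the replicate block. CCL had 26.6, 129 and 44.4 CPM in stimulus, against 182, 159 and 189 CPM in mock (-1.41 ± 0.55, adjusted p 0.142), with stimulus replicate 3 as the high library. Without that library CCL was at -2.34 and called (0.0285), as were 4.54% of 20989 features. With all libraries kept, DESeq2 called CCL (-1.41, adjusted p 0.0464) and the edgeR fits did not. The libraries left out for CHE and for CCL were picked by the gene's own level, so the 2 fits without them are not separate tests. The RVE4 call ended without stimulus replicate 2, 3 or 4 or mock replicate 3 (adjusted p 0.0508 to 0.0996).

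**Figure D3:**
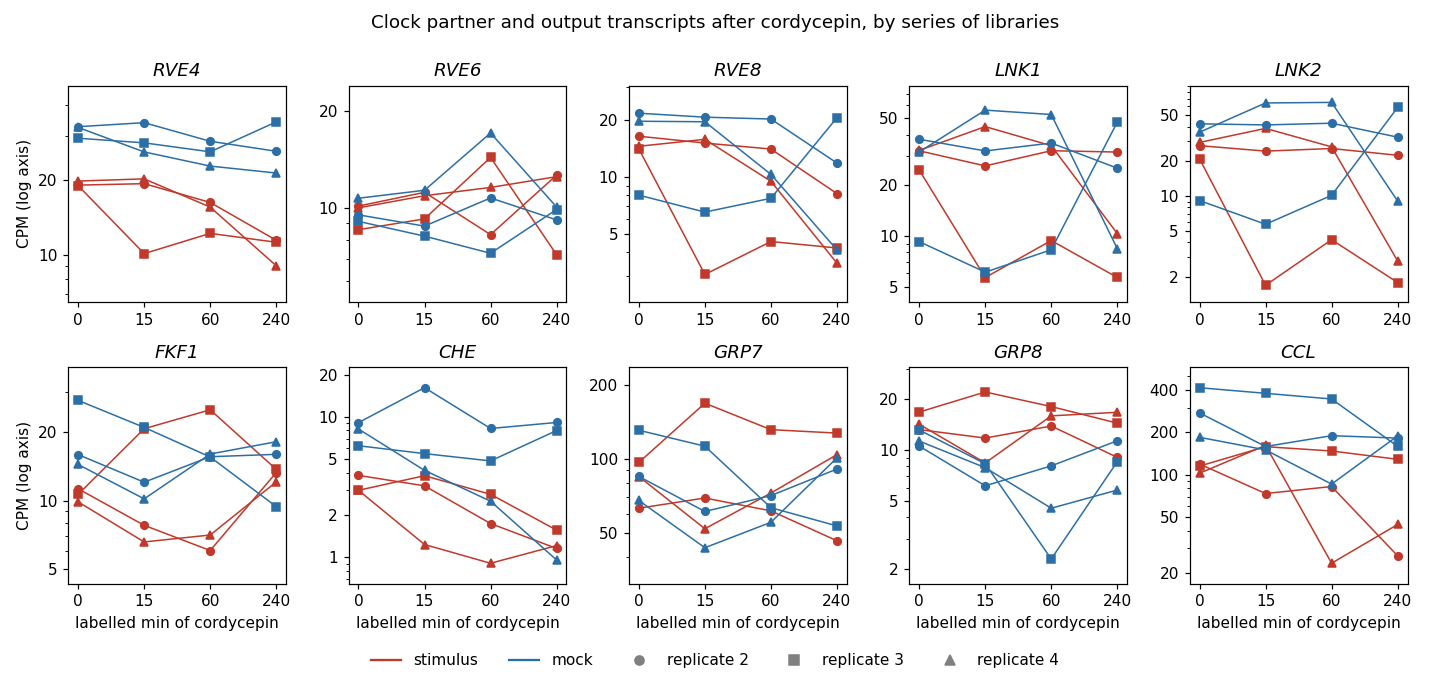
CPM of each member (vertical axes, log scale) at 0, 15, 60 and 240 labelled min of cordycepin (horizontal axes, evenly spaced); each line joins the libraries of one treatment (stimulus red, mock blue) and replicate number. The 3 stimulus lines of RVE4 lie below its 3 mock lines at each time, while LNK1, LNK2 and RVE8 jump between libraries, as in stimulus replicate 3, where LNK2 is at 21.1 CPM at 0 min and 1.70 CPM at 15 min.

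The decline of each transcript after cordycepin was fitted as a straight line of log2 abundance on time. In stimulus leaves edgeR called 4 of the 10 members as falling, RVE8, CHE, RVE4 and GRP8, against 53.7% of 21548 features (54.9% called, 1.24% as rising). RVE8 fell by 0.48 ± 0.13 log2 units per hour (SE; adjusted p 0.00682), a half-life of 126 min. CHE fell by 0.44 ± 0.11 (0.00492), a half-life of 136 min, and RVE4 fell by 0.33 ± 0.06 (0.00173), a half-life of 180.3 min. GRP8 fell by 0.17 ± 0.07 (0.0474), and its half-life of 354 min lies beyond the last time point. These slopes include the decay factor, which rests on a list of presumed-stable transcripts. With TMM alone RVE4 fell by 0.20 (0.0325), and RVE8 (-0.34, 0.0603), CHE (-0.30, 0.0518) and GRP8 (-0.03, 0.712) were not called. GRP8 averaged 14.6, 14.0, 15.9 and 13.3 CPM in stimulus at 0, 15, 60 and 240 min, and its call also ended with total counts (0.428), a decay factor shared by both treatments (0.0863), no filter (0.0562) and without replicate 3 (0.125). The median slope of the members was -0.34 log2 units per hour, and that of all features -0.15. Without replicate 2 edgeR called none of the members and no feature at all.

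CCL, the short-lived output transcript, had a slope of -0.35 ± 0.14 log2 units per hour in stimulus leaves (edgeR adjusted p 0.0522, not called). Its series differed: the log2 change at 240 min was -2.16 in stimulus replicate 2, 0.16 in replicate 3 and -1.21 in replicate 4. Without replicate 3, picked here by CCL's own change, it fell by 0.59 log2 units per hour and was called (0.0131). In that fit 46.7% of all features were called. FKF1 (-0.08 ± 0.11), RVE6 (-0.12 ± 0.05) and GRP7 (-0.12 ± 0.10) had the slopes nearest to 0. Within one side of the phase score some were steeper. FKF1 fell by 0.35 above 0 (edgeR adjusted p 0.00771), GRP7 by 0.33 below 0 (0.0295) and CCL by 0.71 below 0 (0.0311). In these fits edgeR called 3 members and 17.8% of all features above 0, and 5 members and 28.5% below 0. No stimulus library of 0 min lay above 0, and replicate 2 was the sole stimulus library of 240 min below 0. The sides were read from these data, and the levels of FKF1, GRP7 and CCL leaned with the score. These fits are therefore not separate tests.

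LNK1 and LNK2 had slopes of -0.35 ± 0.16 and -0.50 ± 0.23 in stimulus, not called (edgeR adjusted p 0.0716 and 0.0801), and the phase score differed between the times that these slopes join. None of the stimulus libraries of 0 min had a phase score above 0, but 1 of 3 did at 15 and at 60 min, and 2 of 3 at 240 min. LNK2 was at 22.6 CPM in stimulus replicate 2 at 240 min, with a score of -0.48, and at 1.79 and 2.76 CPM in replicates 3 and 4, with scores of 2.73 and 2.30. Within the 8 stimulus libraries below 0 the slope was -0.23 for LNK2 (adjusted p 0.0501), -0.15 for LNK1 (0.136) and -0.39 for RVE8 (0.0293, still called). Within the 4 above 0, 3 of them replicate 3, it was -0.18 for LNK2 (0.428), -0.06 for LNK1 (0.715) and -0.09 for RVE8 (0.639). CHE kept its size on both sides, -0.53 below 0 (0.0604) and -0.49 above 0 (0.0197). The score holds CCA1, with which LNK2 ran at a rho of 0.97, so these sides were split on a measure close to the members' own levels, and the part of phase in the slopes was not tested.

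In mock leaves edgeR called none of the members and none of 21185 features (0%). At an unadjusted p under 0.05 there were 2 members and 2584 features, and DESeq2 called none of the members. CCL had a slope of -0.24 ± 0.11 log2 units per hour (edgeR adjusted p 0.368) and RVE4 of -0.14 ± 0.06 (0.368). From 0 to 60 min alone, edgeR called 39.6% of 20919 features and 3 members in mock leaves, RVE4, GRP7 and GRP8, with RVE4 falling by 0.84 log2 units per hour (0.0166).

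**Figure D4:**
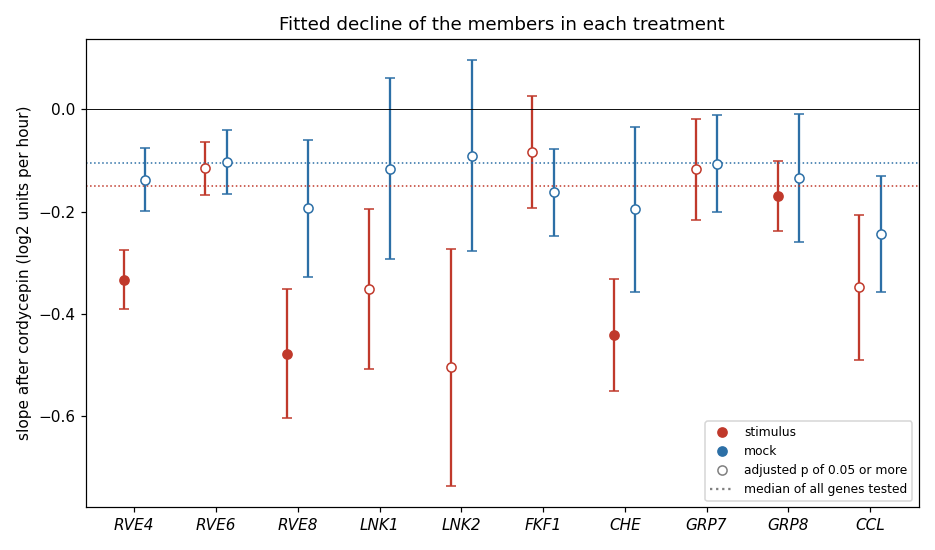
Fitted slope after cordycepin (vertical axis, log2 units per hour) of each member in stimulus (red, left of each pair) and mock (blue, right), with bars of 1 SE over 12 libraries; filled points have an edgeR adjusted p under 0.05 and dotted lines are the medians of all features tested in each treatment. The filled points are RVE4, RVE8, CHE and GRP8 in stimulus, and no mock point is filled.

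The difference in slope between treatments was tested over all 24 libraries. edgeR called none of the members and none of 22318 features (0%); at an unadjusted p under 0.05 there were 1 member and 1728 features, and DESeq2 called none of the members. The member was RVE4, with a slope steeper in stimulus by -0.20 ± 0.08 log2 units per hour (edgeR adjusted p 0.645). LNK2 had the widest difference (-0.41 ± 0.30, 0.69), and for CCL it was -0.11 ± 0.18 (0.876). The differences of the 10 members lay between -0.41 and 0.08. Without replicate 4 edgeR called RVE4 (-0.27, 0.037) and CHE (-0.46, 0.0424), and 20.8% of 22313 features. The mock series kept in that fit, replicates 2 and 3, were those with little loss of short-lived RNA at 240 min.

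The rest of the clock was read from lists of 23 core clock genes and 12 output genes. At 0 min edgeR called 6 core genes, 5 lower and 1 higher in stimulus, and 17 did not pass. Over all features tested 56.2% were called, 30.2% as lower and 25.9% as higher, so this count is no higher than the background. PRR3, a pseudo-response regulator, fell the most, with 4.77 ± 0.720 CPM in stimulus and 19.6 ± 7.00 CPM in mock leaves (SD, n = 3 each; log2 change -2.10, adjusted p 3.93e-04), and LWD1, a coactivator of CCA1, was the one higher, with 15.5 ± 0.442 CPM in stimulus and 11.9 ± 0.581 CPM in mock (0.32, 0.00986). ZTL, a relative of FKF1, was also lower (-0.57, 1.82e-04), and LKP2, of the same family, was at -0.12 (0.308). CCA1 (0.13, 0.855) and LHY (0.23, 0.613) were not called. The median core gene stood at -0.37, and the median of all features at -0.03.

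Of the 12 output genes, edgeR called 4 lower and 1 higher in stimulus at 0 min, against 30.2% and 25.9% of all features. CDF1, a repressor of flowering that FKF1 removes, fell the most (-2.39 ± 0.45, adjusted p 0.00394). PRE1, a growth-promoting gene induced by brassinosteroid, was higher (1.90 ± 0.30, 9.29e-04). CAT3, an evening-phased catalase gene, was lower at 0, 15, 60 and 240 min, between -1.93 at 15 min and -2.93 at 240 min (adjusted p 0.0151 or less). PRR3 was lower also at 60 min (-1.60, 0.031) and 240 min (-1.61, 0.0459), PRE1 higher also at 15 min (2.46, 0.00975), and PIF4, a growth-promoting transcription factor, lower at 240 min (-4.12, 0.0313). In the decline of stimulus leaves edgeR called 11 core genes as falling and 1 as rising, and 6 output genes as falling, against 53.7% of all features falling. LNK4, a smaller relative of LNK1 and LNK2, had the steepest core slope (-0.98 ± 0.24 log2 units per hour, 0.00456), BOA was the one rising (0.25 ± 0.07, 0.0106), and PIF4 had the steepest slope of the output genes (-0.86 ± 0.15, 0.00173).

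Parts of 3 members overlap annotated genes of the opposite strand on TAIR10.1: 245 exon bases of LNK1 with AT5G64160, 93 of LNK2 with AT3G54490 and 44 with AT3G08405, and 21 of FKF1 with AT1G68060. The libraries were stranded, but whether the counting used the strand is not given in the sources used here, so reads from those stretches cannot be told apart by gene.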

How the data were processed

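RNA of 24 leaf libraries was sequenced as stranded 50-cycle single reads after ribosomal RNA depletion, per the labels. The authors deposited whole read counts per feature, neither normalised nor pooled. The build TAIR10 and the tools TopHat2 and Bowtie2 are named in the submitters' processing notes; the counting tool and annotation are not given in the sources used here. Groups and replicate numbers came from the labels. All replicate pairs differed by more than sampling noise (a chi-square of 6.25 or more for each degree of freedom).

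Counts were tested with edgeR 4.0.16 (quasi-likelihood, robust) in R 4.3.3, after filterByExpr and TMM scaling, with Benjamini-Hochberg adjustment over all features tested and a threshold of 0.05. DESeq2 1.42.0 was an alternative. For declines, TMM library sizes were multiplied by a decay factor per treatment and time, the median rise of 30 transcripts presumed stable, recalled from published practice: 0.10, 0.37 and 0.59 (log2) at 15, 60 and 240 min in stimulus and 0.26, 0.57 and 0.52 in mock. Printed CPM use TMM over 24 libraries, and log2 values a pseudocount of 0.5. The test at 0 min and the test of slope differences were checked on simulated counts. The simulated slope differences were larger than that of any member, and the fit used TMM without the decay factor. Effect size and dispersions were reset after a first run that recovered few changed genes. The check therefore does not cover slope differences of the members' size.

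Members, lists and tests were chosen with earlier results of these data known. All 10 members were named in every comparison; of the other lists, the called gene with the largest change each way, plus CCA1, LHY, ZTL, LKP2 and CAT3, added after their values were seen. The deviations of same-numbered libraries correlated at 0.37, 0.54 and 0.68 at 15 min in replicates 2, 3 and 4. In that order they correlated at -0.02, 0.15 and -0.14 at 0 min, and at 0.14, -0.11 and 0.80 at 60 min. At 240 min the values were -0.15, 0.61 and 0.62, so only at 15 min did all 3 numbers pair the libraries. Single genes were followed through the alternatives only where the text rests on them: all 10 members at 0 min and in the stimulus decline, and 2 to 4 in the other comparisons, a limit set after the values were seen. Alternatives were other scalings, filters, DESeq2, time ranges, a replicate block, leaving out libraries and fits within each side of the phase score. Counts carry no molecular identifiers. Gene positions, overlaps and sequences came from the RefSeq annotation and genome of TAIR10.1; the count table holds no coordinates.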

Additional observations from a re-analysis of the deposited data

How the results depend on the processing

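With all libraries edgeR called 4 members at 0 min, 0 at 15 min, 1 at 60 min and 1 at 240 min. It called 0 in the mock decline, 4 in the stimulus decline and 0 in the difference of slopes. In the same order, 56.2, 15.8, 7.65, 11.4, 0, 54.9 and 0% of all features tested were called. Leaving out libraries gave 3 to 7 members at 0 min (7 without mock replicate 3, also with stimulus replicate 4 left out). It gave 0 to 1 at 15 min, 0 to 1 at 60 min and 0 to 3 at 240 min. In the stimulus decline it gave 0 to 6 and in the difference of slopes 0 to 2. These fits called 9284 to 11495 of all features at 0 min and 0 to 4770 at 15 min. They called 0 to 1478 at 60 min and 0 to 7765 at 240 min. In the stimulus decline they called 0 to 10941 features and in the difference of slopes 0 to 5079. One fit of all 24 libraries called 1, 1, 2 and 2 members at 0, 15, 60 and 240 min. It called 23.3, 19.9, 20 and 28.2% of all features at those times. DESeq2 called 2 members at 15 min, 2 at 60 min and 3 at 240 min, and 23.9, 13.9 and 20.2% of all features. Median-ratio scaling called 0 members at 60 min (7.47% of all features). Total counts as library size called 0 at 60 min (10.2%) and 0 at 240 min (15.5%). Total counts moved the median of all features to 0.23, 0.34, 0.43 and 0.25 (log2) at 0, 15, 60 and 240 min. Within one side of the phase score 0 members were called at 60 min (below 0) and 0 at 240 min (above 0), and no feature was called in either fit. With the replicate block 2 members were called at 15 min, 3 at 60 min and 7 in the stimulus decline. The shares of all features in these fits were 26.6, 10.8 and 57%. Its other member counts stayed within 1.5 times. Only at 15 min did all 3 numbers pair the libraries. From 0 to 60 min alone 3 members (39.6% of all features) were called in the mock decline and 0 (16.3%) in the stimulus decline. Without the decay factor the stimulus decline had 1 (TMM) or 2 (total counts) members, and 20.2 or 14.1% of all features. Some uncalled values changed sign. At 0 min these were, with total counts, RVE6 (0.16), RVE8 (0.073) and LNK2 (0.041), and, over left-out libraries, RVE6 (-0.16 to 0.0077), RVE8 (-0.53 to 0.053), LNK1 (-0.33 to 0.48), LNK2 (-0.73 to 0.14) and GRP7 (-0.46 to 0.027). In the stimulus decline they were RVE6 (0.020), FKF1 (0.052) and GRP7 (0.018) by TMM alone and FKF1 (0.00058) by total counts. In the difference of slopes they were RVE4 (0.12) and CCL (0.10) from 0 to 60 min, RVE4 (0.013) and CCL (0.018) above a phase score of 0, and CCL over left-out libraries (-0.44 to 0.083). The cause was not tested. CHE, at 16 counts in its lowest library, is the member most limited by depth.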
